A study of Mus musculus with 73 samples.

Results

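The annexins and their S100 partners were followed as a group of 10 genes, 8 annexins (Anxa1, Anxa2, Anxa3, Anxa4, Anxa5, Anxa6, Anxa7 and Anxa11) and 2 S100 genes (S100a10 and S100a11), out of 25220 gene symbols measured. They were picked by name. The reason for the choice was the strong rise of Anxa2 and S100a11 in these libraries. The values of these 2 genes in every comparison, and of all 10 in p150DN against EGFP 8-cell embryos, are therefore a description without a test. The RNA-seq libraries came from mouse embryos of a hybrid C57BL/6 / C3H strain grown in KSOM medium. EGFP 8-cell embryos, the controls, gave 3 libraries, p150DN 8-cell embryos gave 3 and EGFP blastocysts gave 2. The p150 protein, encoded by Chaf1a, belongs to CAF-1, a chromatin assembly complex that deposits histones H3 and H4 on newly replicated DNA. DN stands for a dominant-negative form. The sources used here do not state how EGFP and p150DN were brought into the embryos or how many embryos made up a library.

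Annexins are cytosolic proteins that bind acidic phospholipids of membranes when calcium rises, and they take part in membrane repair, vesicle traffic and the link between membrane and actin. S100 proteins are small calcium-binding EF-hand proteins that form dimers. The S100a10 dimer joins a pair of annexin A2 molecules into a tetramer at the plasma membrane, and S100a11 is a known partner of annexins A1 and A2. In the blastocyst, the outer trophectoderm is the first epithelium of the embryo and surrounds the inner cell mass.

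Counted fragments ranged from 16578221 to 22488477 per library, and 1 FPKM (fragments scaled to gene length and to the library's total) in a gene of 1 kb stood for 16.6 to 22.5 fragments. Chaf1a, in which RNA of the embryo's own gene and of a p150DN construct cannot be told apart, was at 27.7 to 30.2 FPKM in EGFP 8-cell, 165 to 254 in p150DN and 26.5 to 27.2 in blastocyst libraries. Genes above 0 numbered 17310 to 18402 in EGFP 8-cell, 18412, 20465 and 21282 in p150DN replicates 1, 2 and 3, and 18991 and 18547 in blastocysts. p150DN replicates 2 and 3 therefore stood apart in the number of genes detected, and calls of named genes that are lost without both are given where they occur. Leaving out both leaves 1 p150DN library. A call can then be lost for want of replicates, even where the difference keeps its size. The labels do not say that replicates were separate cultures, so the spread behind the p-values may be no more than technical. In whole embryos, fewer cells of a type and less RNA per cell cannot be told apart.

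The promoters of Anxa2 and S100a11 are shown because these genes had the largest differences of the group and were the only members whose searched windows held a match to the AP-1 motif, the binding sequence of the Fos and Jun factors. The 250 bases before each annotated start are from RefSeq on GRCm38.p6, the assembly of mm10, 5′ to 3′ on the gene's strand, with AP-1 matches in capitals. The windows are chr9:69453433-69453682 (plus strand) and chr3:93520246-93520495 (plus strand).
Anxa2: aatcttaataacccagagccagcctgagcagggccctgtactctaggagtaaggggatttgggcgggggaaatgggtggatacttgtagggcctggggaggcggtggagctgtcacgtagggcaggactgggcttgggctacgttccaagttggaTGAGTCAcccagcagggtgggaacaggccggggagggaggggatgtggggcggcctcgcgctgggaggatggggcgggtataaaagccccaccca
S100a11: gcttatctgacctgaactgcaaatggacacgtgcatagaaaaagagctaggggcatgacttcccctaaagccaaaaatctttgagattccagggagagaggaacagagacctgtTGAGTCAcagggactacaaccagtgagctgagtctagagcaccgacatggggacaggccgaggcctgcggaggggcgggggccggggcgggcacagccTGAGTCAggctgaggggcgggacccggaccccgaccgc

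The motif searched was TGANTCA, on both strands, and it reads the same on either. Anxa2 held 1 match, 95 to 89 bases before the start. S100a11 held 2, at 136 to 130 and at 38 to 32 bases. All 3 were the sequence TGAGTCA. Of 32851 promoter windows of the same length in the table, 6.75% held at least 1 AP-1 match and 0.338% held 2 or more. The search used 9 windows of 7 members, Anxa1, Anxa2, Anxa4, Anxa5, Anxa7, Anxa11 and S100a11, with a second start for Anxa4 and for Anxa7. No promoter of Anxa3, Anxa6 or S100a10 was available, so these members were not searched. A GC box (GGGCGG, the Sp1-type motif, on either strand) occurred 3 times each in the Anxa2 and S100a11 windows, 3 times in Anxa11, and 4 times and 1 time at the 2 starts of Anxa7, against 32.7% of all windows with at least 1. A GC box and an AP-1 match together occurred in 1.16% of all windows. The TEAD motif (GGAATG, either strand), named for the factors that act with Yap in the outer cells of the embryo, occurred in the Anxa1 window only, against 12.6% of all windows. These matches are letters in a window, and binding was not tested.

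**Figure D1:**
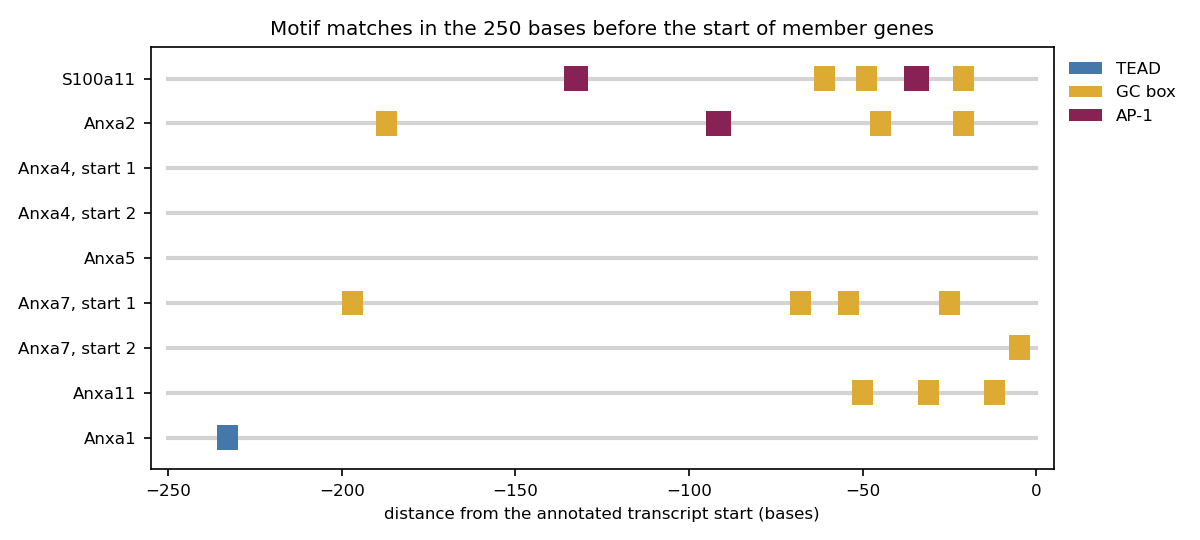
Positions of AP-1 (TGANTCA), GC box (GGGCGG) and TEAD (GGAATG) matches in the 250 bases before the annotated starts of 7 members, with distance from the start in bases on the horizontal axis and 1 line per start. AP-1 matches lie in the S100a11 window (2) and the Anxa2 window (1), and GC boxes lie in windows of 4 genes.

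At the EGFP 8-cell stage 1 annexin outweighed the rest. Anxa7, an annexin with a long amino-terminal extension, stood at 44.2, 52.9 and 49.0 FPKM. It was followed by S100a10 (mean 7.05 FPKM), S100a11 (6.90) and Anxa11 (6.86), whose ranges overlapped each other. Anxa4, Anxa3 and Anxa2 came next with overlapping ranges and means of 1.98, 1.77 and 1.45 FPKM, and Anxa6, Anxa5 and Anxa1 were below 1 FPKM in every EGFP 8-cell library. In blastocysts the order by mean was S100a11 (127 FPKM), Anxa2 (103), Anxa7 (66.1) and S100a10 (65.2), then Anxa4, Anxa6, Anxa3, Anxa11, Anxa5 and Anxa1. Anxa7 and S100a10 overlapped there, as did Anxa4 with Anxa6 and Anxa6 with Anxa3. In p150DN 8-cell embryos S100a11 (102 FPKM) was above every library of the next gene, and Anxa7 (49.5), Anxa2 (48.7) and S100a10 (42.2) overlapped their neighbours in the order.

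**Figure D2:**
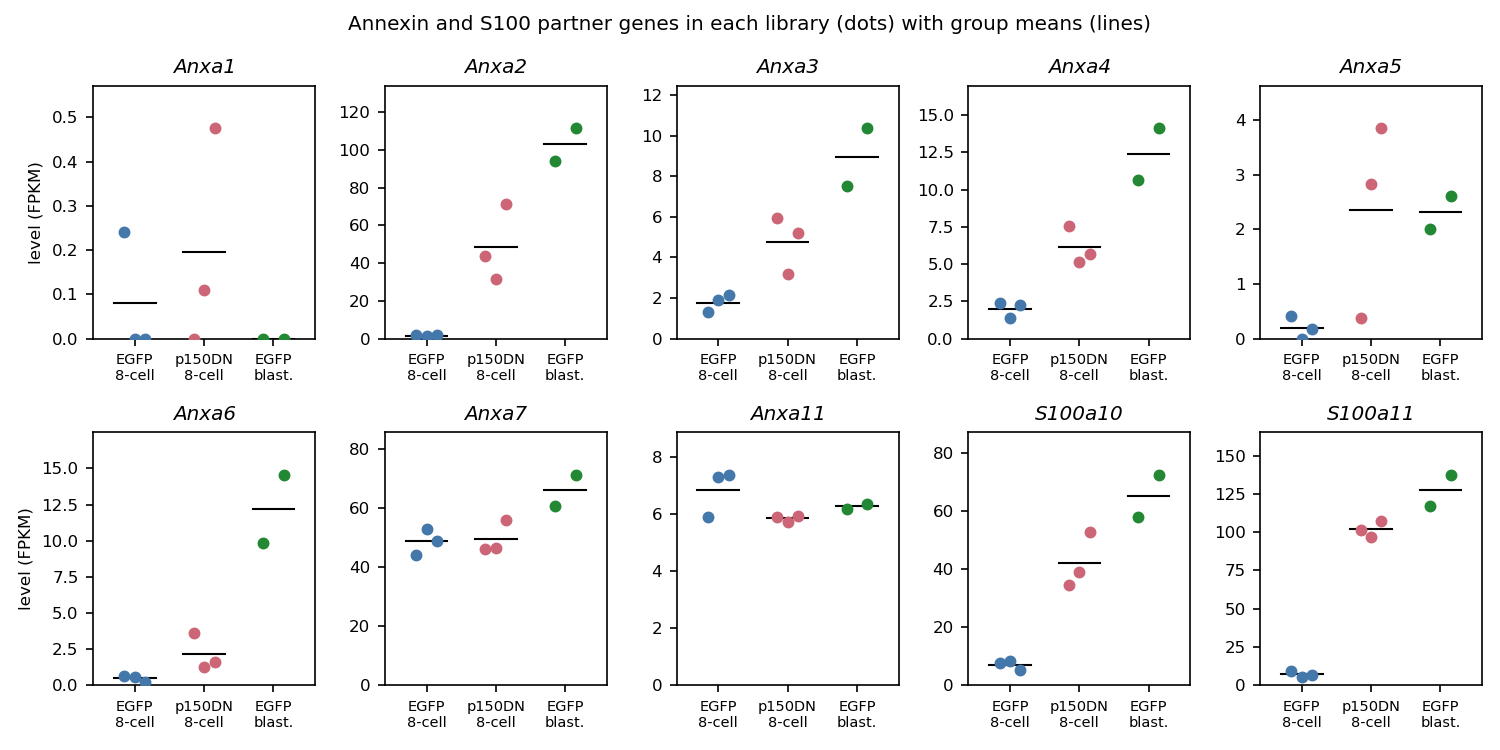
Level of each member in FPKM on the vertical axis, with 1 dot per library, the group mean as a line, and a scale of its own for each gene starting at 0. Anxa2 lies at 1.08 to 1.66 FPKM in EGFP 8-cell, 31.7 to 71.0 in p150DN and 94.2 and 112 in blastocyst libraries, while Anxa7 and Anxa11 stay within 44.2 to 71.4 and 5.72 to 7.38 FPKM over all 8 libraries.

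Between the 8-cell embryo and the blastocyst, most of the expressed annexins and both S100 genes were at higher levels in the later stage of the EGFP controls. The fit was made with limma on log2(FPKM + 1), with calls at a Benjamini-Hochberg adjusted p below 0.05. Of the 9 members in the fit, 8 were called higher in blastocysts and none lower. The background was high, since 42.6% of the 12199 genes tested were called higher, 24.9% lower and 67.5% in either direction. Both blastocyst libraries lay above all controls in 8 members, as they did in 49.3% of genes tested. Nothing is read from the count of 8, because it holds Anxa2 and S100a11, which chose the group, and Anxa5 and Anxa6, which passed the filter of 1 FPKM only through the blastocyst libraries and so had to be higher there. Of the 5 others, 4 were called higher and Anxa11 was not. For genes that passed only through the group where they are high, here and below, the SE and adjusted p given are those of the fit with no filter on low values. Anxa1 was not tested.

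Anxa2, which binds the S100a10 dimer, differed the most. It stood at 1.61, 1.08 and 1.66 FPKM in the 8-cell controls, on 30 to 46 fragments per library, and at 94.2 and 112 FPKM in blastocysts. The ranges were far apart, and the ratio of means was 71.1. The difference was 5.41 ± 0.17 on the log2 scale (SE), given without a test.

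S100a10, the annexin A2 light chain, was at 7.76, 8.29 and 5.09 FPKM in the controls and at 57.9 and 72.5 FPKM in blastocysts, a difference of 3.06 ± 0.21 (log2, SE; limma adjusted p = 4.88e-05). S100a11 was at 9.34, 5.10 and 6.26 FPKM and then at 117 and 138 FPKM, a difference of 4.05 ± 0.23, also without a test. Neither gene had a blastocyst library near the 8-cell range. S100a10 was above Anxa2 in every 8-cell control and below it in both blastocyst libraries. The Anxa2 to S100a10 ratio of FPKM was 0.207, 0.130 and 0.325 in the controls and 1.63 and 1.54 in blastocysts, so the levels of the partners did not change in proportion. That too is a description, because the rise of Anxa2 chose the group.

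Anxa6, whose protein carries a duplicated annexin core, was near 0 at the 8-cell stage. Its levels were 0.63, 0.56 and 0.23 FPKM there and 9.85 and 14.6 FPKM in blastocysts, a difference of 3.15 ± 0.25 (log2, SE; limma adjusted p = 0.00068 with no filter). Anxa4, an annexin of secretory and apical epithelial membranes, was at 2.37, 1.37 and 2.22 FPKM and then at 10.6 and 14.1 FPKM, a difference of 2.17 ± 0.22 (limma adjusted p = 0.0002). Anxa3 was at 1.29, 1.89 and 2.14 FPKM and then at 7.50 and 10.4 FPKM, a difference of 1.84 ± 0.22 (limma adjusted p = 0.00035). In all 3 genes both blastocyst libraries were above every control.

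Anxa5, the annexin used as a probe for phosphatidylserine on dying cells, was at 0.42, 0 and 0.18 FPKM in controls, on 0 to 15 fragments, and at 2.01 and 2.61 FPKM in blastocysts. The difference was 1.47 ± 0.20 (log2, SE; limma adjusted p = 0.0029 with no filter), with no overlap. Anxa1, a target of glucocorticoids in adult cells, was hardly detected. It had 0.24, 0 and 0 FPKM in controls, 0, 0.11 and 0.48 in p150DN and 0 in both blastocyst libraries, on at most 11 fragments in any library. The 0 fragments in the blastocyst libraries allow levels of up to 0.111 and 0.0958 FPKM, the worth of 3 fragments, as far as counting error goes.

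The abundant Anxa7 and the Anxa11 gene differed little. Anxa7 was at 60.9 and 71.4 FPKM in blastocysts, above all 3 controls, with a difference of 0.43 ± 0.13 (log2, SE; limma adjusted p = 0.020), near the median of all genes. This call was lost with median-of-ratios scaling of the libraries (adjusted p = 0.17), without blastocyst replicate 2 (0.14) and without EGFP 8-cell replicate 1 (0.066). Anxa11, a long annexin known to tether RNA granules to lysosomes, was at 5.90, 7.29 and 7.38 FPKM in controls and 6.17 and 6.37 FPKM in blastocysts. The groups overlapped, and the difference of -0.11 had a 95% interval of -0.49 to 0.28 (limma adjusted p = 0.58). Under quantile normalization Anxa11 was called lower, with a difference of -0.52 (adjusted p = 0.021).

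In p150DN 8-cell embryos Anxa2, S100a11, S100a10, Anxa4, Anxa3 and Anxa6 lay between the controls and the blastocysts, and Anxa1, Anxa5, Anxa7 and Anxa11 did not. Anxa2 was at 43.5, 31.7 and 71.0 FPKM, on 851 to 1618 fragments, and the ratio of means to EGFP 8-cell was 33.7. S100a11 was at 102, 96.7 and 107 FPKM, a ratio of means of 14.8. On the log2(FPKM + 1) scale the differences were 4.28 ± 0.28 (SE) for Anxa2 and 3.74 ± 0.19 for S100a11. S100a11 was tight across the p150DN replicates, whereas Anxa2 was lowest in replicate 2 and highest in replicate 3.

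S100a10 was at 34.6, 39.1 and 52.9 FPKM in p150DN, a log2 difference of 2.43 ± 0.22 (SE) from EGFP 8-cell. Anxa4 was at 7.56, 5.16 and 5.67 FPKM (1.26 ± 0.22). Anxa3 was at 5.93, 3.17 and 5.21 FPKM (1.04 ± 0.24). Every p150DN library was above every control for these genes. Anxa6 was at 3.58, 1.23 and 1.58 FPKM (1.03 ± 0.31 with no filter), also without overlap, and it passed the filter only through the p150DN libraries. Anxa5 was at 0.37, 2.82 and 3.85 FPKM. Its replicate 1 lay within the control range and the other two above it, and the gene did not reach the filter.

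Anxa7 was at 46.0, 46.5 and 56.0 FPKM and Anxa11 at 5.90, 5.72 and 5.94 FPKM in p150DN, with log2 differences of 0.02 ± 0.13 (SE) and -0.19 ± 0.17. Both overlapped the controls. With median-of-ratios scaling, which moved the median of all genes from 0.19 to -0.07, the Anxa7 value changed sign to -0.28. Of 8 members that passed the filter, 6 were called higher in p150DN and none lower, where 24.6% of the 11730 genes tested were called higher, 9.68% lower and 34.3% in either direction. The same 6 had p150DN libraries above all controls, as had 34.3% of genes. Because this contrast chose the genes, nothing is read from that count. Among the genes called, 71.8% were higher, against 42.3% with median-of-ratios scaling and 49.3% with quantile normalization.

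**Figure D3:**
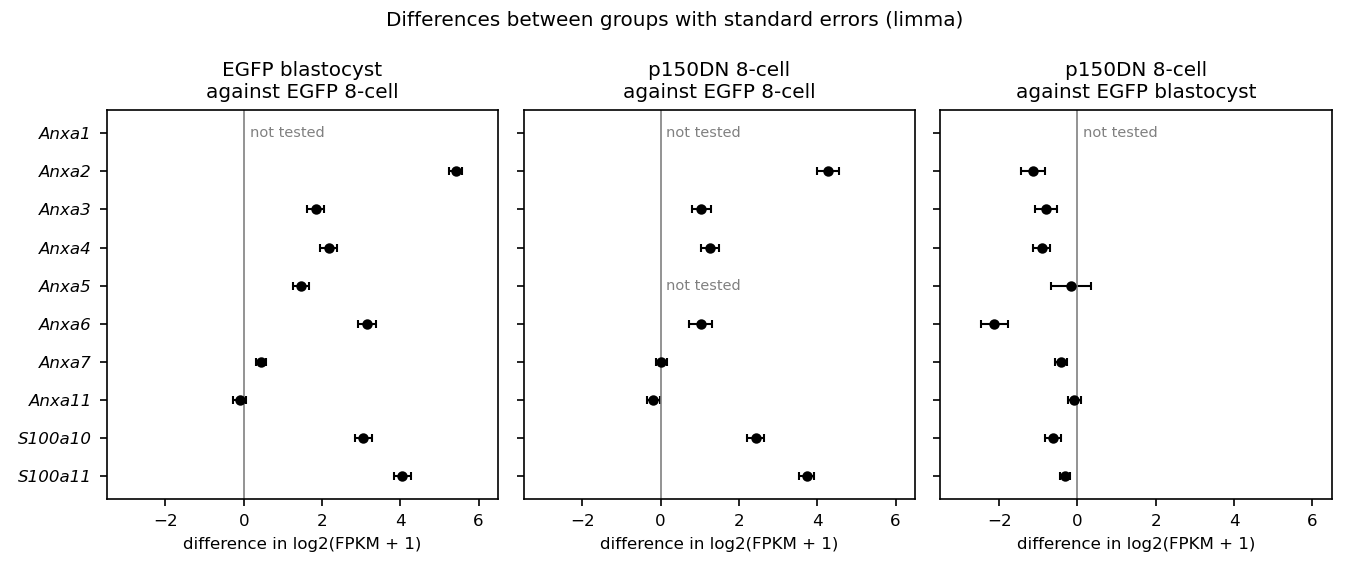
Difference in log2(FPKM + 1) of each member on the horizontal axis in 3 comparisons, as dots with standard errors from the limma fit with the filter. Anxa2 is at 5.41 between stages, 4.28 in p150DN against EGFP 8-cell and -1.14 in p150DN against blastocyst, while Anxa7 and Anxa11 stay near 0 in each. The middle panel is the contrast on which the genes were chosen.

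Set against the EGFP blastocysts, the p150DN levels were lower for most members. The 3 groups were apart in the order EGFP 8-cell, p150DN and blastocyst in 6 of 10 members, namely Anxa2, Anxa3, Anxa4, Anxa6, S100a10 and S100a11. Counting only the last step, blastocysts lay above all p150DN libraries in 8 members, as they did in 33.8% of 12648 genes tested. Anxa2 was 1.14 ± 0.31 (log2, SE) lower in p150DN than in blastocysts on this scale, with its highest p150DN library at 71.0 FPKM and its lowest blastocyst library at 94.2 FPKM. S100a11 came closer, with a difference of -0.32 ± 0.13 and with 107 FPKM in the highest p150DN library against 117 in the lower blastocyst library. These 2 genes were chosen for their p150DN level and were not tested here.

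Of the 7 other members tested, 2 were called lower in p150DN than in blastocysts and none higher, where 14.2% of 12648 genes were called lower, 11.9% higher and 26.1% in either direction. These tests share the p150DN libraries with the contrast behind the choice. Anxa6 had a difference of -2.13 ± 0.34 (log2, SE; limma adjusted p = 0.0084) and Anxa4 of -0.91 ± 0.22 (adjusted p = 0.026). Both calls were lost without blastocyst replicate 1 (adjusted p = 0.085 and 0.12) or 2 (0.14 and 0.24), and without p150DN replicates 2 and 3 (0.063 and 0.15). The Anxa4 call was also lost without p150DN replicate 2 alone (0.056), without replicate 3 alone (0.061) and with no filter on low values (0.063).

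The other members did not pass in that comparison. The log2 difference was -0.63 ± 0.21 (SE) for S100a10, with a limma adjusted p of 0.062, and -0.80 ± 0.27 for Anxa3, with 0.064. Anxa7 had -0.41 ± 0.15 (adjusted p = 0.087) and Anxa11 had -0.08 ± 0.17 (0.73). Anxa5 had -0.16 ± 0.51 (0.83), with a 95% interval of -1.36 to 1.03 that leaves its place between the groups undetermined. Anxa3, Anxa7, Anxa11 and S100a10 were nevertheless lower in all 3 p150DN libraries than in both blastocyst libraries, by small margins for Anxa11.

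The make-up of the annexin pool shifted accordingly. Over the 12 annexin genes of the table, the 8 members plus Anxa8, Anxa9, Anxa10 and Anxa13, the summed level was 60.3, 69.2 and 66.2 FPKM in EGFP 8-cell, 126, 110 and 173 in p150DN and 208 and 250 in blastocyst libraries. Anxa7 made up 73.4%, 76.4% and 74.0% of this sum in the controls, 36.4%, 42.2% and 32.4% in p150DN and 29.3% and 28.5% in blastocysts. Its own level moved little, as given above, so its smaller share goes with a larger sum. Anxa2 made up 2.67%, 1.56% and 2.50% in controls, 34.4%, 28.7% and 41.1% in p150DN and 45.4% and 44.5% in blastocysts. The Anxa2 to S100a10 ratio in p150DN was 1.26, 0.810 and 1.34, above every control and below both blastocyst libraries. These shares and ratios are a description in every group, because they rest on Anxa2, whose rise chose the group of genes.

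**Figure D4:**
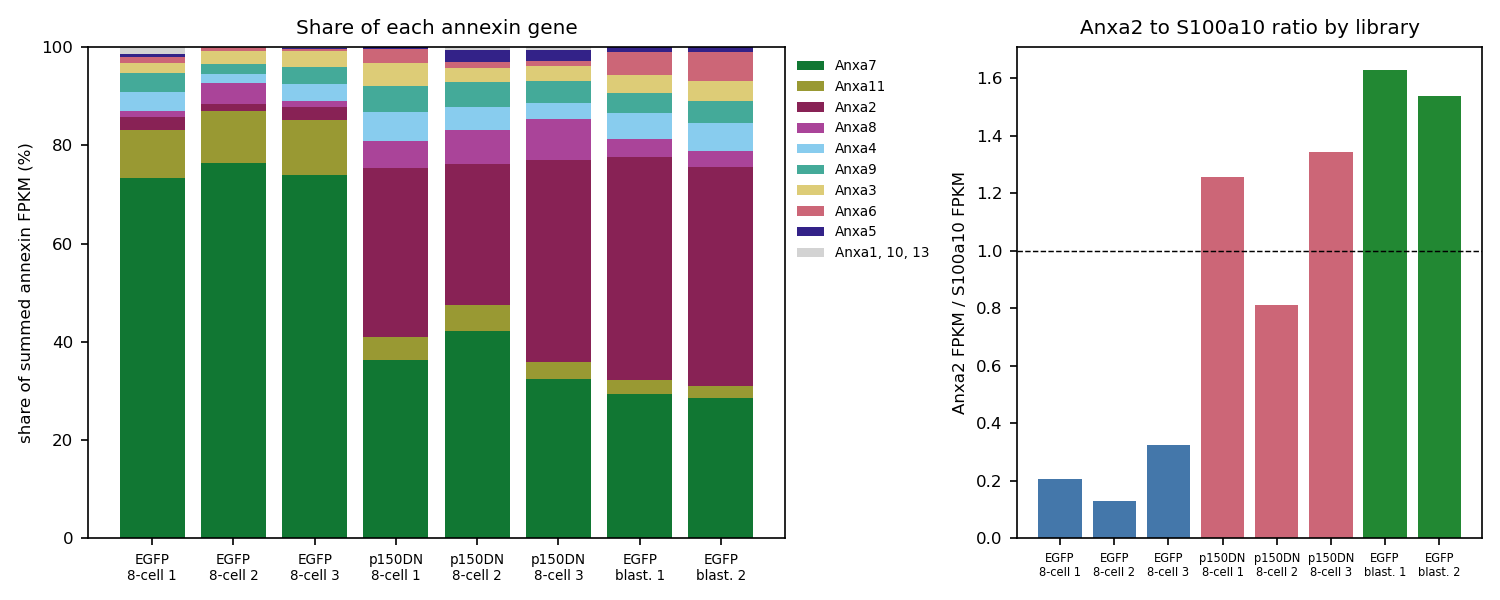
Left, share of each annexin gene in the summed annexin FPKM of each library, in percent; right, ratio of Anxa2 to S100a10 FPKM per library, with a dashed line at 1. Anxa7 holds 73.4% to 76.4% of the sum in EGFP 8-cell libraries and 28.5% and 29.3% in blastocysts, and the ratio is below 1 in all 3 EGFP 8-cell libraries and in p150DN replicate 2.

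Of the annexins outside the group, Anxa8 and Anxa9 were expressed. Anxa8, an epithelial annexin, was at 0.69, 2.87 and 0.91 FPKM in EGFP 8-cell, 6.82, 7.73 and 14.7 in p150DN and 7.75 and 8.26 in blastocyst libraries. It was higher in p150DN than in controls by 2.14 ± 0.40 (log2, SE; limma adjusted p = 0.016 with no filter) and higher in blastocysts by 1.96 ± 0.39 (adjusted p = 0.011 with no filter), and it passed the filter only through those groups. The p150DN call was lost without p150DN replicates 2 and 3 (0.094), and the stage call without blastocyst replicate 2 (0.056).

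Anxa9, an annexin with degenerate calcium sites, was at 2.28, 1.30 and 2.38 FPKM in EGFP 8-cell, 6.75, 5.56 and 7.75 in p150DN and 8.57 and 11.0 in blastocyst libraries. The differences were 1.37 ± 0.22 (limma adjusted p = 0.0024) for p150DN and 1.86 ± 0.23 (adjusted p = 0.00042) for the stage, and the first was lost without p150DN replicates 2 and 3 (0.053). Its span overlaps the expressed genes Mindy1 and Cers2, so its counts are uncertain where reads were not assigned by strand. Anxa10 and Anxa13 stayed below 1 FPKM in every library.

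Of 14 further S100 genes, 3 were tested in each comparison. S100a3, an S100 protein known from hair cuticle, stood out from the members because it was high in p150DN alone. It was at 1.37, 0.32 and 1.36 FPKM in EGFP 8-cell, 6.82, 6.99 and 11.4 in p150DN, on 125 to 173 fragments, and 0.40 and 0.29 in blastocyst libraries. All p150DN libraries were above all others. The gene passed the filter in each comparison only through the group where it was higher. With no filter, the difference from EGFP 8-cell was 2.24 ± 0.32 (log2, SE; limma adjusted p = 0.0069) and that from blastocysts 2.77 ± 0.29 (adjusted p = 0.015), while the stages differed by -0.54 ± 0.29 (adjusted p = 0.20). The call against blastocysts was lost without either blastocyst replicate, which leaves 1 blastocyst library. In the filtered fit the stage difference was called lower without EGFP 8-cell replicate 2 (0.0039). The span of S100a3 holds S100a2, which was at 0 to 1.46 FPKM.

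S100a6, or calcyclin, was at 1.07, 0 and 1.15 FPKM in EGFP 8-cell, 3.14, 8.60 and 16.4 in p150DN and 3.38 and 4.39 in blastocyst libraries. It was higher in p150DN than in controls by 2.43 ± 0.56 (log2, SE; limma adjusted p = 0.030 with no filter) and in blastocysts by 1.56 ± 0.35 (adjusted p = 0.006). S100a14, an epithelial S100 gene, was at 0, 0.45 and 0.47, then 1.79, 2.43 and 6.33, then 3.40 and 3.17 FPKM, with differences of 1.68 ± 0.39 in p150DN (limma adjusted p = 0.032 with no filter) and 1.73 ± 0.23 between stages (adjusted p = 0.0027 with no filter). S100a14 passed the filter in both comparisons, and S100a6 in p150DN, only through the group where it was high. Both genes were highest in p150DN replicate 3 and lowest of the p150DN libraries in replicate 1. Without replicates 2 and 3 their p150DN calls were lost (0.14 and 0.074), and the S100a6 stage call was lost without blastocyst replicate 1 (0.061) or 2 (0.098).

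S100a4 was at 1.06, 0 and 0 FPKM in EGFP 8-cell, 0.79, 0.51 and 1.57 in p150DN and 0.21 and 0 in blastocyst libraries, so that EGFP 8-cell overlapped p150DN and both blastocyst libraries were below all p150DN libraries. S100a13 passed 1 FPKM in p150DN replicate 3 only, at 3.63 FPKM. The remaining S100 genes of the list, among them S100a8 and S100a9 of neutrophils, stayed below 1 FPKM in every library. S100a7a and S100a8 were at 0 throughout. S100a10 and S100a11 are themselves neighbours on chromosome 3, with 28828 bases between the end of S100a11 (chr3:93520496-93526288) and the start of S100a10 (chr3:93555117-93564645). Tchh, a gene of hair follicles on the S100a11 side, was at 1.90 to 4.50 FPKM in EGFP 8-cell, 1.51 to 3.62 in p150DN and 0.09 and 0.31 in blastocyst libraries, and so did not share their pattern.

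Genes that act with annexins were taken as 3 lists. Their counts stand beside the shares over all genes tested, 42.6% called higher and 24.9% lower between stages, and 24.6% and 9.68% in p150DN. Of 8 genes for EF-hand proteins and other direct partners, 5 were tested between stages and all 5 were called higher in blastocysts, 1 of them (Sri, sorcin) having passed the filter only there. In p150DN 3 of the 4 tested were called higher than in controls, with a median log2 difference of 0.68 beside 0.19 for all genes tested, and none of 4 without p150DN replicates 2 and 3. Ahnak, the giant scaffold bound by the annexin A2 and S100a10 complex, was at 5.39, 3.65 and 2.21 FPKM in EGFP 8-cell, 13.8, 19.95 and 16.3 in p150DN and 41.4 and 31.6 in blastocyst libraries. It differed by 3.02 ± 0.29 (log2, SE; limma adjusted p = 0.00015) between stages and by 1.94 ± 0.26 (adjusted p = 0.0012) in p150DN. The p150DN call of Ahnak was lost without p150DN replicates 2 and 3 (0.067).

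Gca (grancalcin) and Pef1 (peflin), penta-EF-hand proteins, rose less. Gca was at 7.27 to 7.92 FPKM in EGFP 8-cell, 11.5 to 12.5 in p150DN and 17.9 and 23.2 in blastocyst libraries, and Pef1 at 6.63 to 12.5, 14.7 to 16.3 and 20.2 and 20.4 FPKM. Their stage differences were 1.33 and 1.13 (limma adjusted p = 0.00036 and 0.005), and the Pef1 call was lost without either blastocyst replicate (0.07 and 0.076). Their p150DN differences were 0.61 and 0.76 (adjusted p = 0.013 and 0.026), and the calls were lost in 4 of 16 alternatives for Gca and in 8 of 16 for Pef1. Among these were median-of-ratios scaling (0.11 for each) and leaving out p150DN replicates 2 and 3 (0.097 and 0.25). The formyl peptide receptor genes Fpr1, Fpr2 and Fpr3, whose products bind annexin A1 outside the cell, stayed below 1 FPKM throughout.

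Over all genes tested, 42.6% were called higher and 24.9% lower between stages, and 24.6% and 9.68% in p150DN. Of 20 genes of membrane repair and the calpain system, 15 were tested. Between stages 10 were called higher in blastocysts, 3 lower and 2 did not pass. In p150DN 6 were called higher, 1 lower and 8 did not pass, and without p150DN replicates 2 and 3 there were 5 higher and none lower. Capn2 and Syt7 passed the filter only through the group where they were high. Of the 13 others, 9 were higher and 2 lower between stages, and 5 higher and 1 lower in p150DN. Capn2, the catalytic subunit of m-calpain, was at 0, 0 and 0.08 FPKM in EGFP 8-cell, 3.12, 1.79 and 5.54 in p150DN and 14.7 and 13.6 in blastocyst libraries, with a stage difference of 3.88 ± 0.18 (log2, SE; limma adjusted p = 0.00028 with no filter). Capns1, the small calpain subunit, was at 3.14, 4.71 and 6.07, then 22.3, 18.1 and 23.3, then 53.3 and 67.7 FPKM, with differences of 3.47 ± 0.24 between stages (adjusted p = 4.8e-05) and 2.01 ± 0.22 in p150DN (0.00052). Capn1, the catalytic subunit of the other classical calpain, had group means of 33.7, 30.6 and 37.2 FPKM and did not pass in either comparison (0.31 and 0.48).

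Stx4a, a plasma membrane syntaxin, rose by 1.36 ± 0.13 between stages (log2, SE; limma adjusted p = 0.00012). Cavin1, a coat protein of caveolae, and Pdcd6ip (Alix), an adaptor of the ESCRT membrane machinery, rose in p150DN by 1.43 ± 0.21 and 1.08 ± 0.16 (adjusted p = 0.0018 and 0.0017). The Cavin1 call was lost without p150DN replicates 2 and 3 (0.054). The genes that were lower in blastocysts were Dysf (-1.20), the membrane repair protein dysferlin, Snap23 (-1.08) and Syt7 (-0.72), on the log2 scale, and Snap23 was also lower in p150DN (-0.83), a call lost without p150DN replicates 2 and 3 (0.085). These 3 were named after their values were seen, to spell out the count. Syt7 was low, at 1.07, 1.74 and 1.07 FPKM in EGFP 8-cell and 0.29 and 0.48 in blastocyst libraries. Its stage call was lost without either blastocyst replicate, which leaves 1 blastocyst library.

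Plasminogen activation was included because the annexin A2 and S100a10 complex binds plasminogen and its activator at cell surfaces. The shares over all genes tested were again 42.6% higher and 24.9% lower between stages, and 24.6% and 9.68% in p150DN. Of the 8 plasminogen genes, 5 were tested. In blastocysts 4 were called higher and Plat, encoding tissue plasminogen activator, lower. In p150DN 4 were called higher and none lower, and without p150DN replicates 2 and 3 there were 2 higher and 1 lower. Plau and Plgrkt passed the filter only through the group where they were high. Of the 3 others, 2 were higher and 1 lower between stages, and 2 were higher in p150DN. Plau, encoding urokinase, was at 0.02, 0.06 and 0.20 FPKM in EGFP 8-cell, 3.98, 14.6 and 11.4 in p150DN and 36.2 and 9.57 in blastocyst libraries. The blastocyst replicates differed widely. The differences were 4.18 ± 0.53 (log2, SE; limma adjusted p = 0.0025 with no filter) between stages and 3.18 ± 0.43 (adjusted p = 0.006 with no filter) in p150DN.

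Plaur, the urokinase receptor, was at 1.18, 4.72 and 2.23, then 9.34, 21.9 and 18.9, then 8.01 and 7.02 FPKM, and so was highest in p150DN. Its difference from blastocysts, 0.98 ± 0.33 (log2, SE), was not called (limma adjusted p = 0.066). With p150DN replicate 1 alone that difference was 0.28. Against EGFP 8-cell, Plaur rose by 2.29 ± 0.39 in p150DN (log2, SE; limma adjusted p = 0.0031), a call lost without p150DN replicates 2 and 3. Its stage difference of 1.31 ± 0.38 (adjusted p = 0.018) was lost without either blastocyst replicate (0.16 and 0.13). Serpine2, a secreted inhibitor of urokinase, was at 2.00 to 2.85 FPKM in EGFP 8-cell, 16.8 to 26.4 in p150DN and 12.4 and 18.8 in blastocyst libraries, with differences of 2.65 ± 0.21 in p150DN (adjusted p = 0.00017) and 2.25 ± 0.22 between stages (0.00016). Plgrkt, a plasminogen receptor, rose by 2.26 ± 0.21 between stages (adjusted p = 0.001 with no filter). Plg itself, encoding plasminogen, did not exceed 0.17 FPKM in any library.

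**Figure D5:**
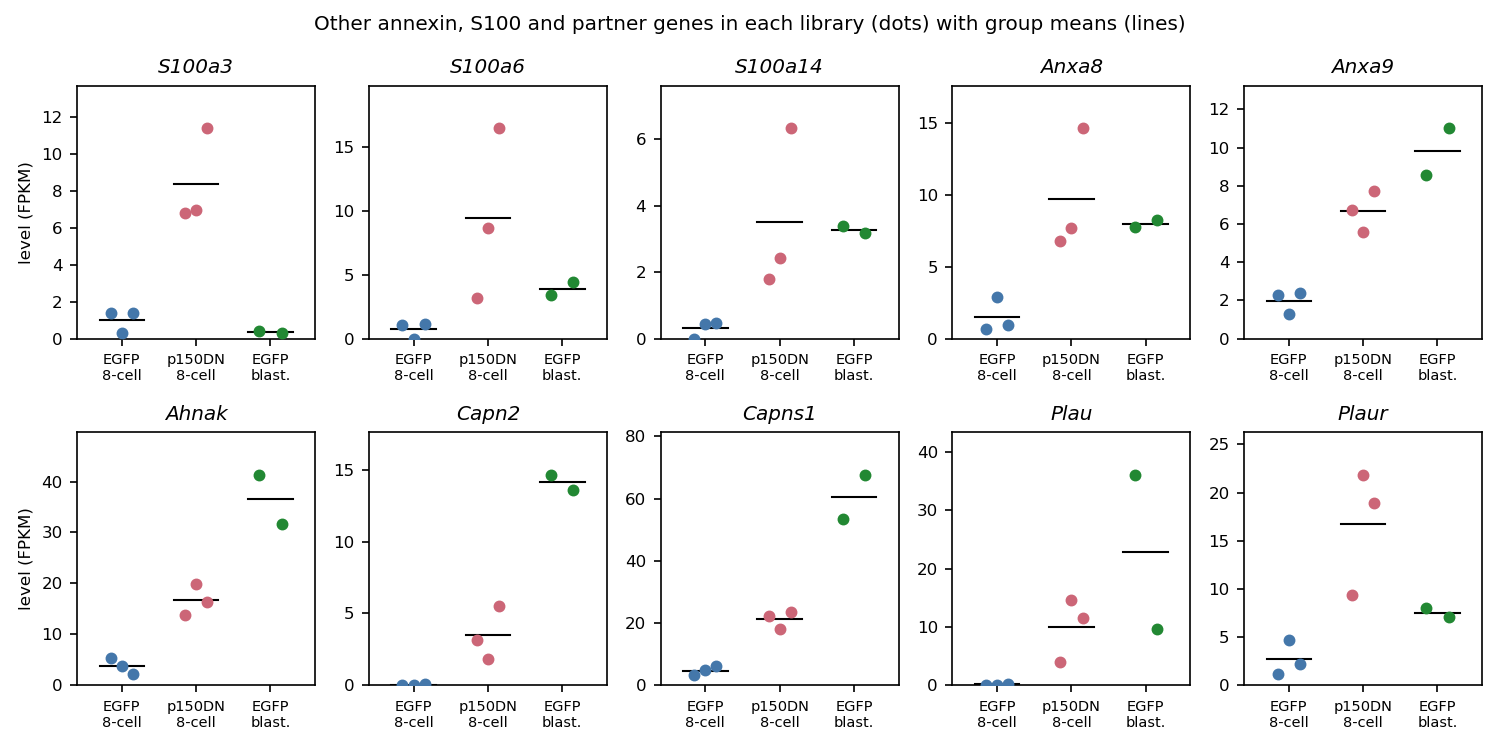
Level in FPKM, on a scale of its own for each gene, of 2 further annexins, 3 further S100 genes and 5 genes of the partner, calpain and plasminogen lists, with 1 dot per library and the group mean as a line. S100a3 is at 6.82 to 11.4 FPKM in p150DN and at most 1.37 FPKM elsewhere, and Plaur is highest in the p150DN group.

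Cell type markers were read beside these levels. Their counts stand beside 42.6% of all genes tested called higher and 24.9% lower between stages, and 24.6% and 9.68% in p150DN. Of 11 trophectoderm genes, summed levels were 245 to 270 FPKM in EGFP 8-cell, 394 to 608 in p150DN and 1175 to 1245 in blastocyst libraries, and Elf5 was at 0 in all EGFP 8-cell libraries. Between stages 8 of 10 tested were called higher and 1 lower, 4 of the 10 having passed the filter only through the blastocysts. In p150DN 6 of 8 were called higher and 1 lower, with or without replicates 2 and 3, and 2 of the 8 had passed only through p150DN. Krt18, a keratin of the trophectoderm, was at 4.36 to 6.79 FPKM in EGFP 8-cell, 117, 147 and 241 in p150DN and 418 and 435 in blastocyst libraries. Over p150DN replicates 1, 2 and 3 the trophectoderm factor Cdx2 was at 25.4, 17.0 and 36.9 FPKM, in the order of Anxa2. Gata3, another trophectoderm factor, was in the same order, at 47.6, 41.4 and 54.3 FPKM. The inner cell mass factor Nanog was also lowest in replicate 2, at 35.4 FPKM. Cdx2 was not among the genes picked by the naming rule given below. Krt8, Krt18 and Krt19 were instead lowest in replicate 1, with Krt8 at 60.0, 98.6 and 120 FPKM. The trophectoderm factors Eomes and Gata2 were lowest in replicate 1 and highest in replicate 2. Eomes was at 3.78, 8.31 and 8.04 FPKM and Gata2 at 0, 2.15 and 0.70 FPKM. Krt7 and Tead4 were in the order of Anxa2, so the list shared no single order. Tead4 was the trophectoderm gene called lower in both comparisons. Its means were 144, 60.3 and 55.3 FPKM in EGFP 8-cell, p150DN and blastocyst libraries. The 8 inner cell mass genes summed to 463 to 631 FPKM in EGFP 8-cell, 612 to 858 in p150DN and 1102 to 1177 in blastocyst libraries. Much of that sum was Pou5f1 (235 to 625 FPKM), and the first 2 ranges overlap. Between stages 4 of the 8 were called higher and 2 lower, and in p150DN 5 higher and 2 lower, or 2 higher and 1 lower without p150DN replicates 2 and 3. In both comparisons Sox2 passed the filter only through the group where it was high. Of the 7 others, 3 were higher and 2 lower between stages, and 4 higher and 2 lower in p150DN. With all replicates the lower ones were Klf2 and Esrrb. Over EGFP 8-cell, p150DN and blastocyst libraries their means were 107, 51.5 and 15.0 FPKM and 47.2, 34.4 and 21.9 FPKM. The p150DN call of Esrrb, at a log2 difference of -0.46, was lost in 8 of 16 alternatives. One was leaving out p150DN replicates 2 and 3, where the difference was -0.25. The Klf2 call was kept in all 16. Of 5 primitive endoderm genes tested between stages, 3 were called higher and 1 lower, and of 4 in p150DN, 2 higher and 1 lower. Gata4 was the lower one, with means of 48.4, 7.60 and 0.71 FPKM. Between stages, Gata4 and Sox17 passed the filter only through the group where they were high. The part of cell type make-up in the annexin values was not tested.

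Markers of cells that could cling to embryos were near 0. Cumulus and granulosa genes summed to at most 1.26 FPKM in any library, with none of 8 reaching 1 FPKM and Has2 at 0 in all 8-cell libraries. Fibroblast genes, whose cells express many annexins and S100 genes, summed to at most 1.92 FPKM, with Dcn at 0 in all p150DN libraries and Lum at 0 in both other groups. Thy1 was the only one of 7 to reach 1 FPKM, in p150DN. Fibroblast sums were nonetheless higher in p150DN (0.61 to 1.92 FPKM) than in EGFP 8-cell (0.03 to 0.19). Blood genes summed to at most 3.82 FPKM, mostly Cd52.

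The genes whose profiles over the 8 libraries were most like that of Anxa2, among 7144 compared, were Ass1, Krt18 and Lrp2, with root mean square differences of centred log2(FPKM + 1) of 0.35, 0.37 and 0.39 against a median of 2.28 over all genes compared. Ass1 encodes argininosuccinate synthase, and Lrp2 encodes the endocytic receptor megalin. For S100a11 they were L1td1, Cat and Fam129a (0.36, 0.37 and 0.40, median 1.82), of which Cat encodes catalase. S100a11 was 17th in the order of likeness to Anxa2, and Anxa2 was 27th in that to S100a11, at a difference of 0.60. S100a10 was 70th in the order for Anxa2, at a difference of 1.06. Anxa2 was 1901st in the order for S100a10, where the median was 1.28. The measure also counts the size of a difference, which between stages was 5.41 for Anxa2 and 3.06 for S100a10 (log2). Both genes had the 3 groups apart in the same order. Reads of near-identical copies may be shared with 2 members. Pseudogene copies of S100a11 and of Anxa2 are annotated, and the handling of reads that match both is not given in the sources used here.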

How the data were processed

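The authors deposited FPKM values, per the file headers, in 1 table of 25220 gene symbols and 8 libraries. The submitters' processing notes name Bowtie2, HISAT2, SAMtools, Trim Galore, featureCounts and the build mm10, without versions or roles. The labels' protocols name a stranded SMART-seq kit used on total RNA. Whether counting used strand is not given in the sources used here. The table's columns named for 8-cell embryos without p150DN were taken as EGFP 8-cell. FPKM fixes the total per library, so a change in RNA per embryo cannot be seen. Fragments per gene were recovered from FPKM and gene length within 0.02 of a whole number for all 10 members. Coordinates and promoters are from RefSeq tables of GRCm38.p6 (24920 symbols matched, 98.8%).

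Each pair of groups was fitted on its own with limma 3.58.1 under R 4.3.3, with an intensity trend in eBayes and two-sided tests, on log2(FPKM + 1), which understates fold changes of low genes. Genes of at least 1 FPKM in as many libraries as the smaller group holds were tested, and p-values were adjusted by Benjamini-Hochberg over all genes tested. The code was tested on simulated data. The members, lists, motifs and tests were chosen with earlier results of these data known. Named genes were all members, other annexins and S100 genes of at least 1 FPKM in 2 libraries, and up to 3 genes per list and comparison with the largest difference among those called, given groups apart and 5 FPKM or more as the mean of 1 group. For Anxa2 and S100a11 the 3 most alike profiles were named. Other pseudocounts, filters, scalings, models and left-out replicates were tried. The other 65 samples of the 73 were not analysed here.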

Additional observations from a re-analysis of the deposited data

How the results depend on the processing

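Among members between stages, 121 of 125 values under alternatives kept their side of the threshold. These include Anxa2 and S100a11, which chose the group, and Anxa5 and Anxa6, which had to be higher. As with the count of 8 above, nothing is read from them or from the member counts that follow. Quantile normalization called 8 members higher and 1 lower. The count called stayed at 7 to 9 of those tested over all alternatives and at 7 to 8 with 1 replicate left out, and the genes called ranged from 6018 to 8144 with 1 left out (8236 with all). The share of higher genes among them was 63.1%, against 53.2% with median-of-ratios scaling and 51.0% with quantile normalization.

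For p150DN against EGFP 8-cell, 4023 genes were called. This ranged from 2441 (without EGFP 8-cell replicate 1) to 4071 with 1 replicate left out, with 2610 without p150DN replicate 3, and was 1913 without p150DN replicates 2 and 3.

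The comparison of p150DN with blastocysts depended most on single libraries. Of 7 members tested, 2 were called, 1 with no filter on low values, 0 without p150DN replicates 2 and 3, and 0 to 3 with 1 replicate left out (1 without p150DN replicate 2, 0 without either blastocyst replicate). Of all genes 3301 were called, 1555 with no filter, 631 without p150DN replicates 2 and 3, and 0 to 4215 with 1 left out. Without blastocyst replicate 1 there were 63, and without blastocyst replicate 2 limma called 0, with 2947 genes at an unadjusted p below 0.05. The lone blastocyst library is then assumed to vary like the other group. The cause of these moves was not tested beyond the smaller number of samples.

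Libraries with the same replicate number did not deviate together (r of -0.0651 to 0.0986), so the numbers were not used as pairs. With the replicate block, 4 members in place of 2 were called lower in p150DN than in blastocysts, and 8 and 6 were called in the other comparisons, as without it. Over single genes, 2478 of 2728 values kept their call or, for untested member values, stayed within their spread. A further 198 lost and 29 gained a call, and 23 untested member values moved by more than their spread. In 50 of the 2728 the sign changed, none of them a value called in the fit as reported. Depth limits Anxa1 and Anxa5, on at most 15 fragments in EGFP 8-cell libraries, and most other S100 genes.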
